A study of Mus musculus with 4 samples.

Results

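Prox1, Sp8, Cxcl14 and Htr3a, 4 genes linked to the fate of interneurons born in the caudal ganglionic eminence (CGE), were followed through young mouse forebrain cells. They were chosen by symbol and made up 4 of 43346 features in the count tables, and every one had a row in all 4 libraries. The libraries were droplet single-cell RNA sequencing libraries of wild-type C57BL/6 mouse embryos at E12.5, with no transgene and no treatment. A single library represented each of the CGE, the lateral (LGE) and medial (MGE) ganglionic eminences and the dorsal cortex (CTX), and each held tissue pooled over embryos. The labels describe sorting for live cells and the methods describe wild-type cells as unsorted, which was not settled, so a sorting step may have set the shares of cells. With 1 library for each region no region was replicated, so no test was made between regions, and every interval given for a level, share or ratio is a 95% interval that covers counting error only. In each library 2 populations were described: high-Nes cells, in which the progenitor gene Nes exceeded 1.5 on the scale ln(1 + UMIs per 10000), and high-Dcx cells, in which Dcx, a gene of young migrating neurons, exceeded the same limit. A UMI (unique molecular identifier) marks 1 captured RNA molecule, and levels are counts-per-million UMIs (CPM) of the summed cells, so more positive cells and more RNA per cell cannot be told apart in them.

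The ganglionic eminences are ventral swellings of the embryonic forebrain that produce its GABAergic, or inhibitory, neurons. Cells born in the CGE supply interneurons of the upper cortical layers, many of which later carry the serotonin receptor subunit Htr3a, and the homeodomain factor Prox1 is required for their migration and maturation. Sp8 is a zinc finger factor known from CGE interneurons and from the olfactory bulb interneurons of the dorsal LGE, and Cxcl14 encodes a secreted chemokine expressed by many mature interneurons of CGE origin.

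Prox1 (ENSMUSG00000010175.9) lies on the minus strand of chromosome 1 from 190118035 to 190170714, Sp8 (ENSMUSG00000048562.6) on the plus strand of chromosome 12 from 118846329 to 118852576, Cxcl14 (ENSMUSG00000021508.10) on the minus strand of chromosome 13 from 56288643 to 56296551 and Htr3a (ENSMUSG00000032269.7) on the minus strand of chromosome 9 from 48899213 to 48911099, all on GRCm38. Sp8 and Cxcl14 overlap no other annotated gene. Prox1 overlaps the antisense genes Gm28172 and Prox1os, and its first exon shares 133 bases with an exon of Prox1os. Htr3a overlaps the antisense gene Gm32335, and because counting by strand was not stated, reads of these overlapping partners cannot be told apart from those of Prox1 and Htr3a. The 250 bases before a RefSeq start are shown for Prox1, Sp8 and Cxcl14, so that their motifs can be read side by side. They come from RefSeq on GRCm38.p6 and are written on the strand of the gene, at chr1:190170828-190171077 for Prox1, chr12:118846983-118847232 for Sp8 (within the first intron of its longest transcript) and chr13:56296552-56296801 for Cxcl14. Capitals mark AGGTCA on either strand, the hexamer read by nuclear receptors such as the COUP-TF proteins Nr2f1 and Nr2f2, and GGGCGG on either strand, the GC box read by Sp-family factors; the motifs do not overlap each other in these windows.
Prox1: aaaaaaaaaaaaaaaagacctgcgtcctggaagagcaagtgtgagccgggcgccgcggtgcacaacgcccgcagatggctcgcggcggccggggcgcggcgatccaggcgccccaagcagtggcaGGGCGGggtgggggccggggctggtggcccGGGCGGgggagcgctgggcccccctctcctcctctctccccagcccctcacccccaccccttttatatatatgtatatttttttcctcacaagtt
Sp8: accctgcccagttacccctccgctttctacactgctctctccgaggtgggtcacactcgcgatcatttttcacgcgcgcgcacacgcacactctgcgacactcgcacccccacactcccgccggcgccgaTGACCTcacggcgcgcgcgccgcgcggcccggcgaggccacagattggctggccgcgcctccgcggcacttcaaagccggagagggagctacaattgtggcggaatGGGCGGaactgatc
Cxcl14: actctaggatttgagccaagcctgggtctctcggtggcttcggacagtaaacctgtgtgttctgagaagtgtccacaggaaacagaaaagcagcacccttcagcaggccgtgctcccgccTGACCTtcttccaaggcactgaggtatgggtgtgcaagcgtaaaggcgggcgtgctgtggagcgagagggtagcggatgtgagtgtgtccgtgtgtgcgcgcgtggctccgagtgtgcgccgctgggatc
AGGTCA was present once in the Sp8 window and once in the Cxcl14 window, both times as TGACCT, and in 14.0% of the 32851 RefSeq windows of this length. GGGCGG was present 2 times in the Prox1 window and once in the Sp8 window, and in 32.7% of all windows. These are matches of letters only. Over all 6 windows listed for Prox1, Sp8 and Cxcl14, 2 held AGGTCA and 3 held GGGCGG.

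The libraries held 4301 to 6953 barcodes and 31451467 to 49794765 UMIs, with the fewest of both in CGE, and 3201 to 4755 cells were kept. In the order CTX, LGE, MGE, CGE the high-Nes cells numbered 906, 657, 541 and 181, and the high-Dcx cells 801, 2117, 2204 and 2289. Median depth was 8143 to 9751 UMIs in high-Nes cells and 6341 to 7929 in high-Dcx cells. Marker genes fitted the labels by their summed levels. All 6 GABAergic markers reached 1 CPM in the high-Dcx cells of every library, CTX included. Their summed level was 2225 to 2717 CPM in the eminences and 78.3 CPM in CTX. The 7 glutamatergic markers summed to 3019 CPM in CTX and to no more than 97.5 CPM in the eminences, the highest in CGE. In the 181 high-Nes cells of CGE the microglial list summed to 157 CPM and the pericyte list to 77.0 CPM, and their part in the member levels of those cells was not tested. Pairs of libraries shared 4 to 15 barcodes. As a background for free RNA, barcodes that were mostly hemoglobin (137, 55, 50 and 16 in the same order, at median depths of 10080 to 14167 UMIs) held 1 Prox1 UMI in MGE, 1 Sp8 UMI each in CTX and LGE, and none of Cxcl14 or Htr3a. The 16 such barcodes in CGE held no UMI of any member, which allows up to 13.6 CPM there, a limit above the 9.34 CPM of Htr3a in CGE high-Dcx cells and so of no use as its background.

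Prox1, the homeodomain factor, was present in the young neurons of every library and followed a steep order from CGE down to CTX. In high-Dcx cells it stood at 153 CPM in CGE (2425 UMIs; interval 147 to 159), 81.3 CPM in MGE (1184 UMIs), 17.4 CPM in LGE (256 UMIs) and 3.85 CPM in CTX (26 UMIs). The level in CGE was 1.88 times that in MGE (interval 1.755 to 2.02), MGE was 4.67 times LGE (4.07 to 5.36), and LGE was 4.53 times CTX (3.02 to 7.06), so no pair of neighbours in this order lay within counting error. Prox1 in MGE thus lay well above LGE and CTX, though below CGE. In high-Nes cells the order was the same at lower levels, with 47.8 CPM in CGE, 21.9 in MGE, 7.13 in LGE and 3.35 in CTX, and the CGE level was 2.18 times that in MGE (1.61 to 2.94). Part of the progenitor levels came from cells that passed both gates, 17 of them in CGE: without such cells the level was 30.5 CPM in CGE, 19.8 in MGE and 4.20 in LGE, and LGE and CTX then did not differ beyond counting error (CTX 0.812 times LGE, 0.439 to 1.52).

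The share of cells with a Prox1 UMI followed the same order. So that libraries could be compared at 1 depth, cells were reduced to a random draw of 3000 UMIs (thinned), and 24.6% of high-Dcx cells in CGE, 17.2% in MGE, 4.73% in LGE and 1.02% in CTX then held a Prox1 UMI. At their own depth these shares were 37.3%, 29.9%, 9.49% and 2.75%. Single CGE cells held up to 19 Prox1 UMIs, against 9 in MGE, 4 in LGE and 3 in CTX. Within the CGE high-Dcx cells Prox1 stood at 160 CPM in the 2127 cells with a UMI of the GABAergic genes Gad2 or Dlx5 and none of the glutamatergic genes Neurod2 or Neurod6, and at 51.4 CPM in the 105 cells with a UMI of the latter.

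Sp8, the zinc finger factor, was shared by LGE and CGE young neurons and was low in MGE. Its level in high-Dcx cells was 76.4 CPM in LGE (1123 UMIs), 69.2 CPM in CGE (1097 UMIs), 7.28 CPM in MGE (106 UMIs) and 1.18 CPM in CTX (8 UMIs). LGE stood 1.104 times as high as CGE (interval 1.015 to 1.201), a gap that barely left 1, whereas CGE was 9.51 times MGE (7.79 to 11.7). High-Nes cells gave another order for this gene, with 28.9 CPM in LGE (158 UMIs), 23.6 in CTX (183 UMIs), 3.73 in CGE (6 UMIs) and 0.775 in MGE (4 UMIs). LGE and CTX progenitors did not differ beyond counting error (1.22 times, 0.983 to 1.52), and CTX was 6.33 times CGE (2.85 to 17.5). Without cells past both gates the LGE progenitor level was 14.6 CPM (73 UMIs) and lay below CTX, at 24.0 CPM (CTX 1.64 times LGE, 1.247 to 2.19), while CGE stood at 1.33 CPM and MGE at 0.600 CPM, from 2 and 3 UMIs. Its UMIs thus came mainly from CTX and LGE progenitors and from LGE and CGE neurons, with few in CTX neurons or in MGE and CGE progenitors. MGE neurons held 106 UMIs. Sp8 was found in 15.8% of thinned high-Dcx cells in LGE, 15.5% in CGE, 2.00% in MGE and 0.510% in CTX, and in 25.6%, 24.4%, 4.04% and 0.999% at own depth.

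Cxcl14, the chemokine, was found mainly in the young neurons of CGE, less in those of LGE and hardly elsewhere. No UMI was found in the 801 high-Dcx cells of CTX, which allows up to 0.444 CPM, while CGE had 77.7 CPM (1232 UMIs), LGE 12.2 CPM (179 UMIs) and MGE 0.755 CPM (11 UMIs). CGE was 6.38 times LGE (interval 5.45 to 7.51), and LGE was 16.1 times MGE (8.80 to 32.9). In high-Nes cells Cxcl14 was near the limit of detection everywhere, with 7 UMIs in CGE (4.35 CPM), 20 in CTX (2.58), 10 in LGE (1.83) and 3 in MGE (0.581), and no pair of neighbours in that order differed beyond counting error. All 7 UMIs of the CGE progenitors lay in cells that also passed the Dcx gate, since the level without those cells was 0. Thinned shares in high-Dcx cells were 11.5% for CGE, 2.75% for LGE, 0.140% for MGE and 0 of 785 for CTX (up to 0.382%), and the shares at own depth were 15.8%, 4.91% and 0.272% in the eminences. Where it was found it was often abundant, since only 32.1% of the positive CGE cells held a single UMI and 1 cell held 19.

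Htr3a, a subunit of the ionotropic serotonin receptor, was sparse, and its highest level was not in CGE. High-Dcx cells held 17.4 CPM in MGE (254 UMIs), 9.34 in CGE (148 UMIs), 3.26 in CTX (22 UMIs) and 0.272 in LGE (4 UMIs). MGE was 1.87 times CGE (interval 1.52 to 2.30), CGE was 2.87 times CTX (1.83 to 4.72), and CTX was 12.0 times LGE (4.06 to 47.8). High-Nes cells held 17 UMIs in MGE (3.30 CPM), 6 in CTX (0.774), 1 in CGE (0.621) and none in LGE, which allows up to 0.548 CPM. A UMI of Htr3a was found in 4.47% of thinned high-Dcx cells in MGE, 2.04% in CGE, 1.15% in CTX and 0.145% in LGE, against 8.48%, 4.72%, 2.75% and 0.189% at own depth. About 76% of the positive cells in MGE and CGE held a single UMI, so its detection in a cell rested mostly on 1 molecule.

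**Figure D1:**
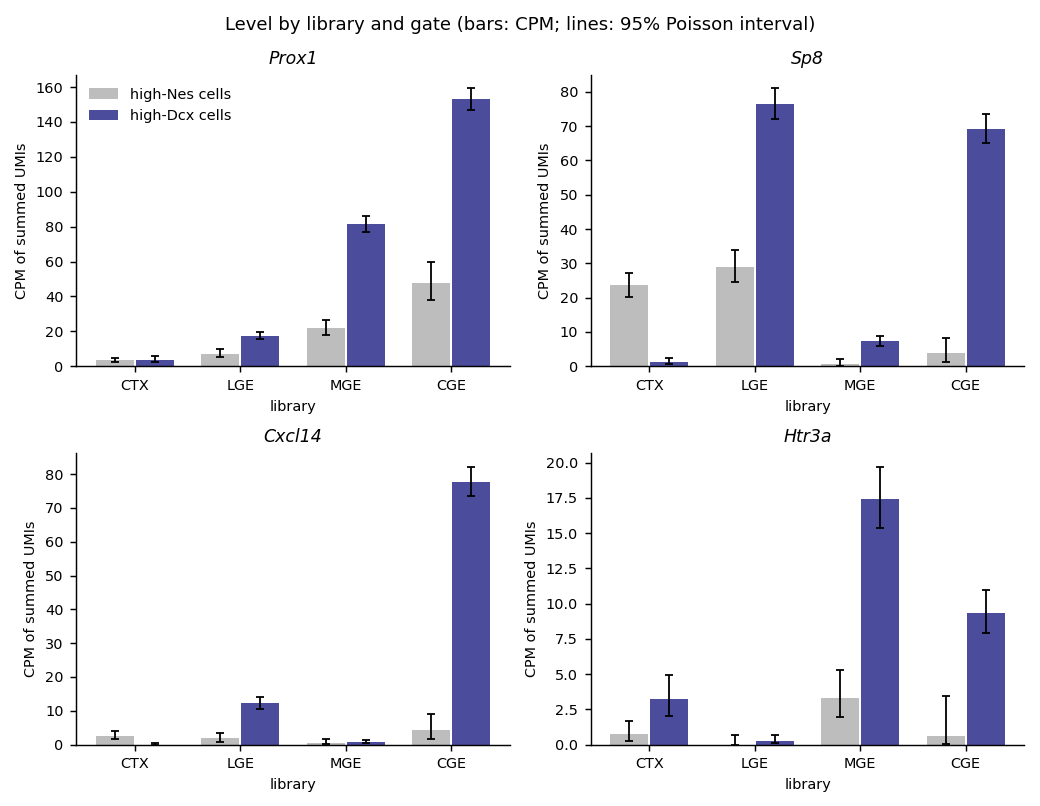
Levels of Prox1, Sp8, Cxcl14 and Htr3a in CPM, on linear axes that differ between panels, in high-Nes cells (grey bars) and high-Dcx cells (blue bars) of each library, with 95% Poisson intervals as lines. Prox1 and Cxcl14 stood highest in CGE high-Dcx cells (153 and 77.7 CPM), Sp8 was alike in LGE and CGE (76.4 and 69.2 CPM), and Htr3a was highest in MGE (17.4 CPM).

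Against the other genes of these libraries, being at least 2-fold higher in CGE high-Dcx cells than in each other eminence was uncommon: of 8511 genes at a mean of 10 or more CPM over the 3 eminences, 1.34% were. Prox1, Sp8 and Cxcl14 passed that mean and Htr3a did not, and of the 3 only Cxcl14 was 2-fold higher. Cxcl14 passed the mean only through its CGE level of 77.7 CPM, as it had 12.2 CPM in LGE and 0.755 in MGE. Its place beside the 1.34% is therefore a description only. The ratios of CGE to the higher of the other eminences were 1.88 for Prox1, 0.906 for Sp8, 6.38 for Cxcl14 and 0.535 for Htr3a, while the median over all 8511 genes was 0.949. Other genes of CGE interneurons numbered 13, of which 5 passed the mean; all 5 were highest in CGE, as were 39.4% of the 8511 genes, and 3 were 2-fold higher. Nr2f2, a nuclear receptor of caudal progenitors and interneurons, had 644 CPM in CGE against 94.9 in MGE, Nr2f1, its relative, 1452 against 394, and Npas1, a factor of CGE and other interneurons, 28.9 against 6.93. Npas1 passed the mean of 10 CPM only through its CGE level, as it had 0.544 CPM in LGE. Vip, the neuropeptide gene of a later CGE subtype, had no UMI in the high-Dcx or high-Nes cells of any library, which allows up to 0.189 CPM in CGE high-Dcx cells. None of the 11 GABAergic lineage genes was highest in CGE (median ratio 0.684), and none of the 13 other serotonin receptor genes passed the mean, the highest being Htr7 with 2.45 CPM in LGE.

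The step from progenitor to young neuron was tested over the 3 eminence libraries, which serve as replicates of the contrast between gates: UMIs were summed for each gate and library, without cells past both gates, and compared with edgeR's quasi-likelihood test with the library as a block. All 4 members were higher in high-Dcx cells, in 3 of 3 libraries each, where 27.7% of the 13060 genes tested were called higher and 27.2% lower. For Htr3a in LGE (4 UMIs against 0) and Cxcl14 in MGE (11 against 3) the single library showed no difference beyond counting error. Prox1, the homeodomain factor gene, rose by 2.21 on the log2 scale (SE 0.13, edgeR adjusted p = 0.000159), which is 4.63-fold. The zinc finger gene Sp8 rose by 3.16 (SE 0.45, edgeR adjusted p = 0.00238), the chemokine gene Cxcl14 by 4.27 (SE 0.85, edgeR adjusted p = 0.00797) and the receptor gene Htr3a by 3.18 (SE 0.52, edgeR adjusted p = 0.00385). The Cxcl14 and Htr3a values rest on very few UMIs in high-Nes cells (0 in the CGE sum for both, once cells past both gates were left out) and depend on the prior count of the fit. Sp8 stood at 4.85 without LGE, and Cxcl14 at 2.69 without CGE (edgeR adjusted p = 0.00132 and 0.0256). Without the library block Prox1, Sp8 and Htr3a did not pass (edgeR adjusted p = 0.0618, 0.0618 and 0.131), and DESeq2 did not call Cxcl14 (adjusted p = 0.0796). The members' median was 3.17 on the log2 scale, beside 0.02 over all genes tested, which normalization holds near 0. It was not particular to the members. Medians of the other lists ran from 0.001 for the Sp family to 3.93 for 9 genes of MGE interneurons, with 3.13 for the other CGE interneuron genes.

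By library the ratio of high-Dcx to high-Nes levels, here with cells past both gates kept, was 2.44 in LGE, 3.71 in MGE and 3.20 in CGE for Prox1, and 2.65, 9.39 and 18.6 for Sp8. In CTX, which was not in the test, Prox1 had a ratio of 1.15 (interval 0.640 to 2.06) and Sp8 a ratio of 0.0502 (0.0209 to 0.101), so cortical neurons held far less Sp8 than cortical progenitors. Cxcl14 gave 6.66 in LGE, 1.30 in MGE (0.343 to 7.25) and 17.9 in CGE, and the MGE library alone, with 11 against 3 UMIs, showed no difference beyond counting error. Htr3a gave 5.29 in MGE, 15.03 in CGE (2.66 to 598) and 4.21 in CTX. Several of these ratios shifted once cells past both gates were left out, as in the edgeR fit. Prox1 then gave 4.98 in CGE, 4.10 in MGE and 3.98 in LGE. The ratio of Sp8 was 4.99 in LGE (3.94 to 6.42), 12.1 in MGE (4.04 to 59.8) and 52.3 in CGE (14.4 to 432), the last against 2 UMIs in high-Nes cells. For Cxcl14 the LGE ratio was 10.2 (4.61 to 28.3), and in CGE, against no UMI, the interval began at 31.7. Htr3a gave 6.67 in MGE (3.83 to 12.7), and its CGE interval began at 3.76, also against no UMI.

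Within the high-Dcx cells the members differed. Dividing cells of the subventricular zone class (SVZ; Dcx above 1.5, Mki67 and Ccnd2 above 0.5, Mapt and Rbfox3 below 0.5) were compared with postmitotic cells of the mantle zone class (MZ; Dcx above 1.5, with Nes, Hes5, Mki67, Ccnd1 and Ccnd2 below 0.5), in the same kind of edgeR fit over the classes of the 3 eminences. In CGE there were 72 SVZ and 1206 MZ cells, in MGE 209 and 846, and in LGE 387 and 561. Of 11724 genes tested, 22.9% were called higher in MZ and 22.9% lower. Prox1 was lower and Cxcl14 higher in MZ cells, in 3 of 3 libraries each, and Sp8 and Htr3a passed in neither direction.

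Prox1 fell by 1.46 on the log2 scale from SVZ to MZ (SE 0.24, edgeR adjusted p = 0.000828), or 2.76-fold, and did not pass without the library block (edgeR adjusted p = 0.395). Its level was 28.3 CPM in SVZ and 4.16 in MZ cells of LGE, 124 and 43.9 in MGE, and 219 and 119 in CGE. The SVZ cells of every eminence thus stood above their MZ cells, and they also stood above the ventricular zone class (VZ, the high-Nes cells outside the SVZ class), at 5.91 CPM in LGE, 20.9 in MGE and 41.0 in CGE. In CGE 43.7% of thinned SVZ cells held a Prox1 UMI, the highest share of any member in the classes of the 3 eminences. The ratio of MZ to SVZ was 0.543 in CGE, 0.355 in MGE and 0.147 in LGE, and the lead of CGE over MGE was 1.77-fold in SVZ cells (1.44 to 2.17) and 2.71-fold in MZ cells (2.34 to 3.15).

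Cxcl14 had no UMI in the SVZ cells of MGE and CGE and 1 in those of LGE, whereas MZ cells held 69 in LGE (20.5 CPM), 8 in MGE (1.60 CPM) and 768 in CGE (99.1 CPM). For CGE, 0 UMIs in SVZ cells allow up to 4.03 CPM, and the exact interval of the ratio of MZ to SVZ began at 19.9. The interval for MGE, from 8 UMIs against 0, began at 0.670 and so held 1. The edgeR fit gave 6.88 on the log2 scale (SE 0.65, edgeR adjusted p = 1.96e-05), a value that depends on the prior count and was 9.69 without LGE. With so few UMIs in its SVZ sums, Cxcl14 passed the filter on low counts only through sums of the other classes. Its p-value here is therefore a description only. Cxcl14 was thus found in the postmitotic class, where Prox1 was also present in the dividing one.

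Sp8 differed in direction between libraries. From SVZ to MZ its level went from 137 to 28.8 CPM in LGE (ratio 0.210, interval 0.167 to 0.261), from 72.6 to 66.8 in CGE (0.921, 0.695 to 1.24) and from 3.07 to 9.63 in MGE (3.14, 1.34 to 8.98), and the joint fit gave -0.78 on the log2 scale (SE 0.56, edgeR adjusted p = 0.278) and 0.28 without LGE. As a consequence LGE led CGE 1.89-fold among SVZ cells (1.43 to 2.56) and CGE led LGE 2.32-fold among MZ cells (1.86 to 2.91). Htr3a stood higher in MZ than SVZ cells in 3 of 3 libraries. Its levels were 18.5 against 11.2 CPM in MGE, 10.5 against 2.69 in CGE and 0.594 against 0.283 in LGE. The LGE values were 2 UMIs against 1, within counting error (ratio 2.10, 0.109 to 124). The joint value for Htr3a was 1.00 on the log2 scale (SE 0.46, edgeR adjusted p = 0.106), and it was -0.073 with the gate at 2.0.

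**Figure D2:**
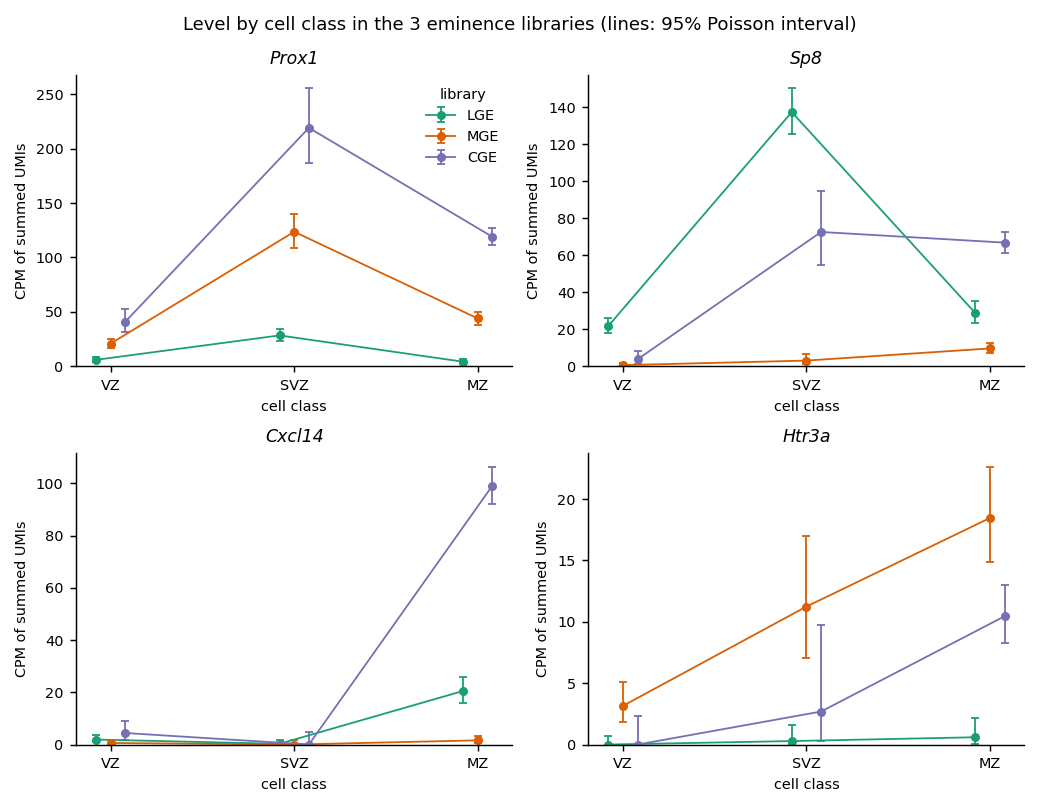
Levels of the 4 members in CPM, on linear axes that differ between panels, in the VZ, SVZ and MZ classes of the 3 eminence libraries, with 95% Poisson intervals, as measured in 1 library per region. Prox1 peaked in SVZ cells of each eminence (219 CPM in CGE), Cxcl14 was found in MZ cells and had 1 UMI in all SVZ cells, and Sp8 dropped from SVZ to MZ in LGE but not in CGE.

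Lists of related genes were read in the same fits. Of the 13 other CGE interneuron genes, 6 of the 8 tested were called higher in high-Dcx than in high-Nes cells, beside 27.7% of all genes, and 6 of the 7 tested were called higher in MZ than in SVZ cells, beside 22.9% of all genes. Calb2 and Reln, markers of later interneuron subtypes, rose from SVZ to MZ by 3.63 and 4.53 on the log2 scale (edgeR adjusted p = 0.00196 and 0.000133), and Nr2f2 by 0.68 (adjusted p = 0.0246). Calb2 and Reln were not particular to CGE: in high-Dcx cells both were highest in CTX (18.9 and 68.9 CPM), which was not in the fit. Among the eminences Calb2 was highest in MGE, at 13.6 CPM against 4.61 in CGE. Of the Sp family, relatives of Sp8, 4 of 5 tested were called lower in MZ cells, beside 22.9% of all genes, among them Sp9 with -0.66 on the log2 scale (edgeR adjusted p = 0.00141), and none was called higher. Of the GABAergic lineage genes, 9 of 11 were called higher and 2 lower in high-Dcx cells, and 3 were higher and 5 lower in MZ cells, beside the same shares of all genes (27.7% higher and 27.2% lower, and 22.9% each way). Cxcr4, the receptor of the chemokine Cxcl12, was higher in MZ cells by 1.55 (edgeR adjusted p = 0.0228), as was the scavenging receptor Ackr3 by 0.85 (adjusted p = 0.0165).

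A minority of single young neurons of the CGE held more than 1 member. In thinned high-Dcx cells at least 1 of the 4 was found in 40.2% of cells in CGE (906 of 2254), 22.4% in MGE, 21.6% in LGE and 2.68% in CTX. At least 2 were found in 11.6% in CGE (262 cells, interval 10.3 to 13.0), 1.30% in MGE, 1.83% in LGE and 0 of 785 cells in CTX, so the CGE share stood far above the others, as it also did at own depth (23.0%, 4.54%, 6.09% and 0.125%). Of the 262 cells, 38 held 3 members and 1 held all 4. The single shares of Prox1 and Cxcl14 were also highest in CGE, and their part in the gap between libraries was not tested. At own depth the CGE cells with 0, 1, 2 and 3 members had medians of 6527, 6880, 7013 and 6652 UMIs, and the LGE cells with 0 and 2 members 6242 and 7547, and the part of depth in the own-depth shares was not tested.

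**Figure D3:**
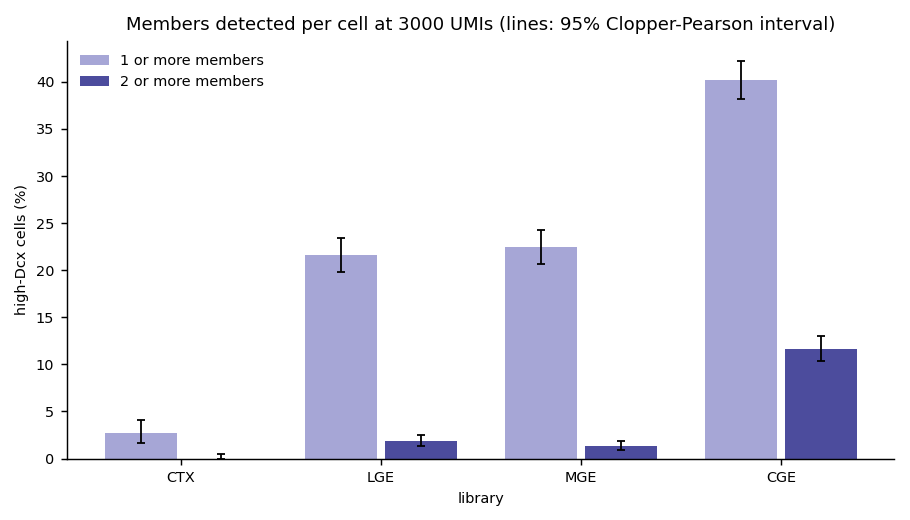
Percent of thinned high-Dcx cells of each library in which 1 or more and 2 or more of the 4 members had a UMI, with 95% Clopper-Pearson intervals. CGE stood highest for both counts, at 40.2% and 11.6%, and CTX lowest, at 2.68% and 0 of 785 cells.

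Pairs were read against the number of cells that would hold both genes if each were spread over the high-Dcx cells of the library without regard to the other. In CGE, Prox1 and Sp8 shared 137 thinned cells where 85.8 were given by their single shares, a ratio of 1.60 (interval 1.35 to 1.88). Prox1 and Cxcl14 shared 87 against 63.7 (1.37, 1.10 to 1.68), which at own depth was 156 against 134.5 (1.16, 0.990 to 1.35) and no longer beyond counting error. Sp8 and Cxcl14 shared 93 against 40.1 (2.32, 1.88 to 2.83), the highest ratio of the 6 pairs. Thus 35.9% of the Cxcl14 cells held Sp8, against 12.8% of the cells without Cxcl14. The pairs of Htr3a rested on few cells: it shared 15 with Prox1 (1.33, 0.743 to 2.18), 9 with Sp8 (1.26, 0.578 to 2.39) and 2 with Cxcl14 where 5.29 were given (0.378, 0.0458 to 1.37), all within counting error of 1. At own depth Prox1 and Htr3a shared 57 CGE cells against 40.2, and that ratio lay above 1 (1.42, 1.08 to 1.83).

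The other eminences gave other values. The LGE library had Prox1 and Sp8 together in 32 cells against 15.5 (2.07, 1.42 to 2.91), but Sp8 and Cxcl14 in 3 against 9.0 (0.333, 0.0688 to 0.973). At own depth the LGE values for Sp8 and Cxcl14 were 14 against 26.7 cells (0.525, 0.287 to 0.879), so the ratio of this pair lay below 1 in LGE and above 1 in CGE. MGE had Prox1 and Htr3a together in 25 cells against 16.5 (1.51, 0.981 to 2.23) and, at own depth, in 81 against 56.0 (1.45, 1.15 to 1.79).

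CGE co-detection depended on which cells were included. The following subsets were chosen after seeing the data. Among MZ cells alone the ratios were 1.94 for Prox1 and Sp8, 1.96 for Prox1 and Cxcl14 and 2.59 for Sp8 and Cxcl14. Leaving out cells with a UMI of Lhx6, Nkx2-1, Isl1 or Ebf1, which mark MGE interneurons and striatal neurons, left 1275 thinned cells, and in these the ratios were 1.21 (1.02 to 1.43) for Prox1 and Sp8, 1.08 (0.865 to 1.33) for Prox1 and Cxcl14 and 1.63 (1.32 to 1.99) for Sp8 and Cxcl14. Sp8 with Cxcl14 and Prox1 with Sp8 stayed above 1 beyond counting error in both sets, and Prox1 with Cxcl14 did so among MZ cells alone. In the same 1275 cells 19.3% held 2 or more members.

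**Figure D4:**
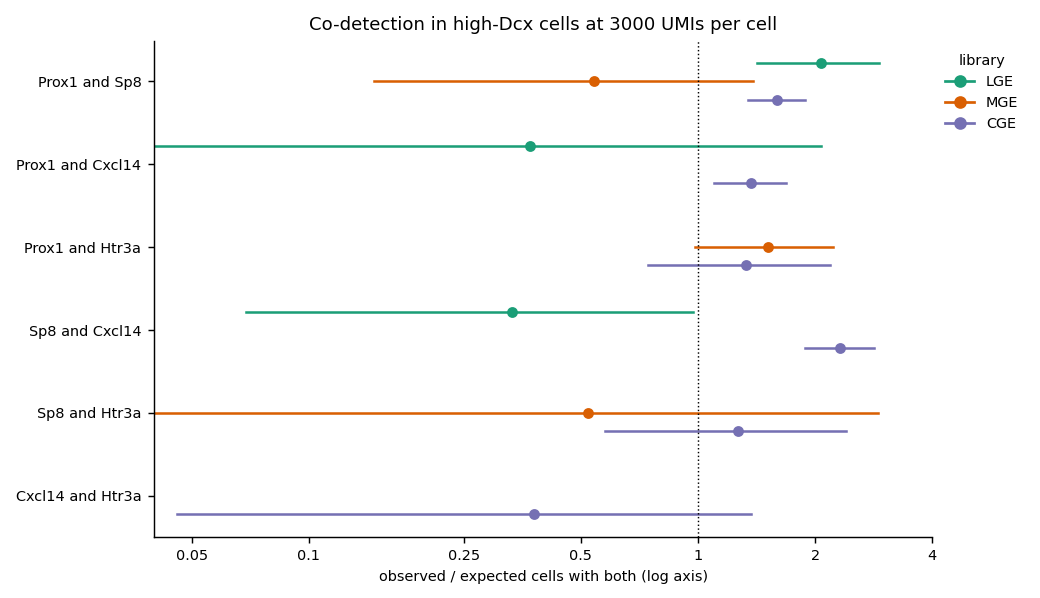
Ratio of observed to expected cells with both members of a pair (log axis; 1 means spread without regard to each other) in thinned high-Dcx cells of the LGE, MGE and CGE libraries (points), with 95% intervals as lines; pairs with fewer than 1 expected cell are left out and lower ends are drawn no lower than 0.04. Sp8 with Cxcl14 stood at 2.32 in CGE and 0.333 in LGE, while Prox1 with Sp8 stood above 1 in both, at 1.60 and 2.07.

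The cells that carried a member were then described by 16 partner genes, by splitting the thinned high-Dcx cells of a library into those with and without a UMI of the partner. In CGE, Prox1 stood at 196 CPM in cells with Nr2f2 and 58.4 CPM in cells without it (ratio 3.35, interval 2.80 to 4.04), and at 155 against 64.2 CPM for Nr2f1 (2.42, 1.74 to 3.46). It stood lower in cells with Lhx6, the MGE interneuron factor (45.8 against 170 CPM; 0.269, 0.202 to 0.352), with Npy (34.5 against 164) and with Nkx2-1, the factor that specifies the MGE (70.6 against 153; 0.462, 0.308 to 0.668). By contrast, Prox1 did not differ with Gad2, the GABA-synthesizing enzyme, or Sp9 (ratios 0.982 and 0.939, both intervals spanning 1). The MGE library gave another picture: Prox1 stood at 105 CPM with Nkx2-1 and 33.6 CPM without (3.12, 2.46 to 3.99), 80.3% of its Prox1 cells held Nkx2-1 against 61.7% of all high-Dcx cells, and the ratio for Lhx6 was 1.05 (0.873 to 1.27). Prox1 in MGE was thus found largely in cells that also held Nkx2-1, and Nr2f2 gave a ratio of 1.76 there (1.42 to 2.16).

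Sp8 in CGE stood highest in cells with Pax6, a factor of dorsal LGE and olfactory bulb lineages (198 against 56.8 CPM; 3.48, 2.86 to 4.22), and was 1.94 times as high with Tshz1 and 1.88 times with Meis2. It was nearly absent from cells with Lhx6 (6.54 against 87.9 CPM; 0.0743, 0.0319 to 0.148) and Npy (0.0865). In LGE the same partners stood out, with 198 against 65.4 CPM for Pax6 and 122 against 28.0 CPM for Sp9 (4.35, 3.43 to 5.57), and Sp8 was low in cells with Isl1, a factor of striatal neurons (4.43 against 117 CPM). Sp8 thus stood higher beside Pax6 in both libraries, though only 20.2% of its LGE cells and 30.1% of its CGE cells held a Pax6 UMI. Sp9 gave another value by library: in CGE the ratio for Sp9 was 0.964 (0.805 to 1.16).

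Cxcl14 in CGE stood higher in cells with Meis2 (124 against 56.9 CPM; 2.18, 1.84 to 2.59), Nr2f2 (102 against 53.0; 1.93, 1.58 to 2.37) and Gad2 (96.2 against 58.5; 1.64, 1.34 to 2.03). It was lower with Sp9 (47.7 against 134 CPM; 0.355, 0.296 to 0.424), Lhx6 (18.8 against 99.5), Sst (7.75 against 94.9) and Nkx2-1 (7.30 against 89.9). In LGE, by contrast, it stood at 21.8 CPM in cells with Ebf1, a gene of striatal projection neurons, and 10.4 CPM without (2.10, 1.31 to 3.32), where CGE gave 25.8 against 89.2 CPM (0.289, 0.149 to 0.509).

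Htr3a went with other genes than the rest. In CGE it stood at 2.14 CPM with Meis2 and 12.1 CPM without (0.176, 0.0616 to 0.412), and at 5.50 against 13.8 CPM for Gad2 (0.399, 0.225 to 0.707), and no UMI was found in the 155 cells with Ebf1. Its ratios for Lhx6, Npy and Nkx2-1 were 1.58, 2.01 and 2.30, each with an interval spanning 1, where those of Prox1, Sp8 and Cxcl14 lay below 0.5. In MGE, where Htr3a was highest, it stood higher in cells with Nr2f2 (41.5 against 12.7 CPM; 3.27, 2.18 to 4.87) and Nr2f1 (27.3 against 9.89; 2.76, 1.84 to 4.22). Of its thinned MGE cells 35.4% held Nr2f2 and 65.6% Nr2f1, against 15.7% and 42.0% of all high-Dcx cells there. Larger shares of them held Lhx6 (71.9%) and Sp9 (82.3%), against 62.8% and 80.8% of all.

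**Figure D5:**
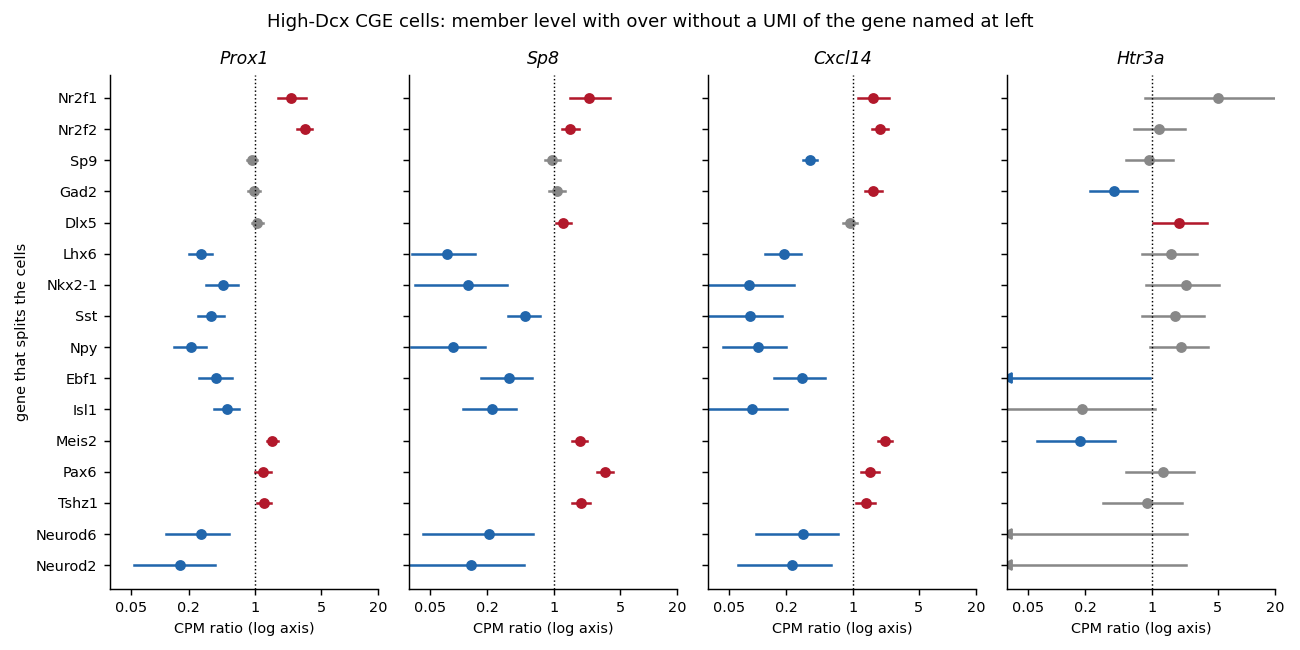
Ratio of the level of each member in thinned high-Dcx cells of CGE with a partner gene (rows) to that in cells without it (log axis), with 95% Poisson intervals drawn no lower than 0.03; red points lie above 1 and blue points below 1 beyond counting error, grey points do not, and an arrowhead at the left edge marks a member with no UMI beside the partner. In CGE, Prox1, Sp8 and Cxcl14 stood above 1 with Nr2f1, Nr2f2 and Meis2 and below 1 with Lhx6, Nkx2-1 and Isl1, and Htr3a did not follow them for Meis2 or Lhx6.

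Over all genes at 50 or more CPM, CGE cells with a UMI of a member were also set against those without, and the 5 largest and 5 smallest ratios were taken. With Prox1 went Prox1os, its antisense neighbour (131 against 25.5 CPM), the zinc finger gene St18 (196 against 63.9 CPM; 3.06, 2.62 to 3.58) and Cenpf, Vim and Ube2c, of which Cenpf and Ube2c act in mitosis and Vim is a filament of progenitors. St18 also stood higher in Prox1 cells of MGE (264 against 92.9 CPM) and LGE (74.8 against 17.7 CPM). Cenpf and Ube2c had ratios of 1.60 and 1.41 in LGE, and in MGE of 1.08 (0.936 to 1.252) and 1.10 (0.987 to 1.23), within counting error of 1. Lowest in Prox1 cells were Ebf1, Sst, Maf, Nxph1 and Ackr3, the first a striatal gene and Sst, Maf and Nxph1 genes of MGE-derived interneurons. The Prox1os value cannot be told apart from a sharing of reads with Prox1.

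Sp8 cells of CGE were richest in Pax6 (220 against 53.0 CPM), Cxcl14 (216 against 60.9), Dcbld2 (120 against 45.0), Tshz1 (136 against 51.3) and Prox1os (91.7 against 44.1), and poorest in Npy, Nxph1, Lhx6, Ackr3 and Isl1. Pax6 and Tshz1, both known from olfactory bulb interneurons, also stood higher in the Sp8 cells of LGE, with 134 against 27.1 CPM and 332 against 97.6 CPM (327 Sp8 cells). Cxcl14 cells of CGE were richest in Foxp2, a forkhead factor (237 against 68.5 CPM), Sp8 (180 against 59.3), Dcbld2 (136 against 46.3), Pcdh9, a protocadherin (296 against 104), and Nrp2, a guidance receptor (221 against 83.0). They were poorest in Isl1, Sst, Npy, Cenpa and Ebf1. Foxp2 was shared with the Cxcl14 cells of LGE (509 against 235 CPM; 2.17, 1.73 to 2.69), whereas Isl1 stood at 491 against 377 CPM there (1.30, 1.04 to 1.62) and at 5.15 against 111 CPM in CGE.

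The 46 thinned Htr3a cells of CGE were richest in Nfib, a nuclear factor I gene (1348 against 482 CPM; 2.80, 2.40 to 3.25), followed by Opa1, Pde4dip, Ackr3 and Pcdh8, and held no UMI of Six3os1, Lsamp, Ebf1, Zfhx3 or Foxp2. Nfib stood at nearly the same ratio in the 96 Htr3a cells of MGE (1069 against 393 CPM; 2.72, 2.41 to 3.06). Zfhx3, a homeodomain factor, stood at 171 CPM in the CGE cells without Htr3a, and with 0 UMIs in the Htr3a cells the interval of the ratio ended at 0.156. In the Htr3a cells of MGE, Ackr3 (0.857, 0.608 to 1.17), Opa1 (0.923) and Pde4dip (0.904) had ratios whose intervals spanned 1.

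The genes most like each member in pattern were sought over the 8 sums of a library and a gate. By Pearson's r of log2(CPM + 1) over these 8 points and 8856 genes, which share libraries and depth between gates and are given as a description, Prox1 was most like Kansl1l (r = 0.97), Ahi1 and Lmbrd1, Sp8 like Ppp2r2d (0.91), Zfhx4 and Pmm2, Cxcl14 like Meaf6 (0.92), Map4k2 and Nsf, and Htr3a like Cacul1 (0.94), Tdrd3 and Adamts5. Most of these moved over a far narrower range than the member, such as Kansl1l with 17.1 to 43.8 CPM. Exceptions were Zfhx4, at 203 CPM in LGE high-Dcx cells, 78.7 in those of CGE and 8.14 in those of CTX, and Adamts5, at 81.5 CPM in MGE high-Dcx cells and 12.8 in those of CGE. Among the members the highest r was 0.77, between Sp8 and Cxcl14, and Htr3a had r = -0.20 with Sp8 and 0.05 with Cxcl14.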

How the data were processed

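Droplet single-cell RNA sequencing data of 4 libraries were used, and each region was 1 sample. The authors deposited unnormalized UMI counts for each gene and barcode, from reads aligned to mm10 by Cell Ranger at default parameters (version 3.0.2 in the headers, 3.0.0 in the submitters' processing notes); the annotation release and counting by strand were not stated. The files held barcodes with 500 or more UMIs. The filter kept barcodes between 1500 and 4500 genes, under 5% mitochondrial UMIs and under 1% Hbb UMIs, and simulated doublets were scored and removed at 0.8% per 1000 barcodes (122 to 275 per library). Cells with 3 or more genes of a non-neural list numbered 13 to 63 per library and were kept. The gate of 1.5 equals 348 CPM.

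The members, lists and tests were chosen with earlier results of these data known. Levels are summed UMIs as CPM with exact Poisson intervals, ratios of levels have exact conditional intervals, and shares have Clopper-Pearson intervals. A co-detection ratio has the Clopper-Pearson interval of the cells with both genes, divided by the expected number. That number was taken as fixed, so error in the single shares is left out. All intervals are at 95% and for counting error only. Beside a count of 0 stands the limit that 3 counts set. Shares and co-detection used cells thinned to 3000 UMIs, and high-Dcx cells under that depth (16 to 54 per library) were left out of them. Sums per library and gate or class were tested with edgeR 4.0.16 in R 4.3.3 (TMM, filterByExpr, quasi-likelihood test, library block, Benjamini-Hochberg over all genes, threshold 0.05, two-sided). The 3 libraries of these tests come from different regions. With the library as a block, the p-values measure how far the change between gates or classes varied from region to region, not the spread of levels between regions. In simulated counts of the first test (13060 genes) 59.0% of 2-fold and 95.0% of 4-fold changes were recovered, and in those of the second (11724 genes) 75.0% and 100%. The changed genes were drawn only from genes above a floor of fitted counts, so these rates do not carry over to genes as sparse as Cxcl14 and Htr3a. Named genes were the members, 16 fixed partner genes, for each member the 3 most correlated genes and the 5 highest and 5 lowest genes of cells with it, and fixed lists, of which those that bear on a result are named. Positions came from GENCODE M21 on GRCm38 by gene ID, which matched 42462 of 43346 features. RefSeq windows were matched by symbol for 3 of the 4 members. Alternatives were DESeq2 1.42.0, other gates, filters and thinning depths, no block, and leaving out each library.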

Additional observations from a re-analysis of the deposited data

Results flagged for a closer look

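Several values pointed in opposite directions in different libraries. With 1 library per region these differences were not tested. The ratio of high-Dcx to high-Nes levels of Sp8 was 18.6 in CGE, 9.39 in MGE and 2.65 in LGE, and 0.0502 in CTX. Without cells past both gates it was 52.3 in CGE, 12.1 in MGE, 4.99 in LGE and 0.0503 in CTX. For Cxcl14 the same ratio was 6.66 in LGE and 17.9 in CGE, and 0 in CTX, where all 20 UMIs lay in high-Nes cells; without cells past both gates it was 10.2 in LGE. From SVZ to MZ cells the ratio of Sp8 was 3.14 in MGE and 0.210 in LGE, and the MGE value rests on 48 and 6 UMIs.

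Sp8 and Cxcl14 shared 2.32 times the expected number of high-Dcx cells in CGE and 0.333 times in LGE, the latter from 3 cells. Partner genes also split by library. Cxcl14 was 2.10 times as high in LGE cells with Ebf1 as in those without, and 0.289 times in CGE. Prox1 was 3.12 times as high in MGE cells with Nkx2-1 and 0.462 times in CGE. Sp8 was 2.33 times as high in CGE cells with Nr2f1 and 0.283 times in MGE.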

How the results depend on the processing

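Each region was 1 library, so embryo, dissection and library cannot be told apart from region, and the depth limits Htr3a most, with 148 UMIs in CGE high-Dcx cells. Of 288 alternative levels 36 moved beyond their counting interval, of 352 shares 68, of 84 co-detection ratios 9 and of 36 ratios between libraries 1. None of the 84 and 36 ratios changed direction, while levels and shares have no direction to change. The ratio of CGE to MGE for Prox1 was 2.11 with the gate at 2.0. Thinning to 2000 UMIs gave co-detection ratios of 1.92 for Prox1 and Sp8 and 1.69 for Prox1 and Cxcl14, and 8.04% of CGE cells with 2 or more members. Thinning to 5000 UMIs gave 1.81 for Sp8 and Cxcl14 and a share of 17.9%, and own depth gave 1.71 and 23.0%. In subsets chosen after seeing the data, MZ cells gave 1.94 for Prox1 and Sp8 and 1.96 for Prox1 and Cxcl14, and cells without Lhx6, Nkx2-1, Isl1 and Ebf1 gave 1.21, 1.08 and 1.63 for Prox1 and Sp8, Prox1 and Cxcl14, and Sp8 and Cxcl14, and a share of 19.3%.

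The replicate block is the library. Without it, the log2 changes from high-Nes to high-Dcx cells were 2.40 for Prox1 and 3.08 for Sp8 (edgeR adjusted p = 0.0618 for both) and 3.11 for Htr3a (0.131), none past the threshold, and that of Prox1 from SVZ to MZ was -1.10 (0.395). The Cxcl14 calls were kept in both comparisons, with edgeR adjusted p = 0.0442 and 0.0137. DESeq2 gave Cxcl14 3.797 from high-Nes to high-Dcx cells (adjusted p = 0.0796). Adding CTX gave Sp8 1.70 (edgeR adjusted p = 0.352). From SVZ to MZ, Sp8 was -0.75 without a filter on low counts (adjusted p = 0.000367), and Htr3a was 1.29 with the gate at 1.0 (0.0180) and -0.073 with the gate at 2.0 (0.938). Without LGE, Sp8 was 0.28 from SVZ to MZ, the opposite direction (edgeR adjusted p = 0.561). The cause of these shifts was not tested.

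Leaving out each eminence in turn, the high-Dcx against high-Nes changes were 2.10 to 2.30 for Prox1, 2.63 to 4.85 for Sp8, 2.69 to 4.94 for Cxcl14 and 2.84 to 3.15 for Htr3a. From SVZ to MZ they were -1.90 to -1.21 for Prox1, -1.30 to 0.28 for Sp8, 6.95 to 9.69 for Cxcl14 and 0.68 to 1.00 for Htr3a. Genes called higher and lower numbered 2733 to 3083 and 2526 to 3127 in the first comparison and 1852 to 2320 and 1781 to 2332 in the second. In the second, thinning gave 1744 higher and 1768 lower and the gate at 2.0 gave 1458 and 1634. Cxcl14 failed the filter on low counts in both comparisons with thinned cells or the gate at 2.0, in the first without LGE or with CTX, and in the second without CGE; Htr3a failed it in both without MGE and in the first with the gate at 2.0.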

Other observations

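Somatostatin (Sst), best known from MGE-derived interneurons, was highest in the CGE library among the eminences, at 443 CPM in high-Dcx cells and 2.52 times the next eminence. Its cells were poor in Cxcl14, Prox1 and Sp8. Cxcl14 stood at 7.75 CPM in the 258 thinned CGE cells with Sst and 94.9 CPM in those without. Prox1 stood at 55.6 against 159 CPM and Sp8 at 38.8 against 77.7 CPM. Htr3a went the other way, at 12.9 against 7.35 CPM, within counting error (ratio 1.76, 0.789 to 3.55). Of 9 genes listed for MGE interneurons, 3 were highest in CGE high-Dcx cells, beside 39.4% of the 8511 genes tested, and 1 was 2-fold higher there, while Nkx2-1 stood at 0.07 and Lhx6 at 0.22 times the next eminence. All 8 striatal genes that passed the mean level were highest in LGE, beside 32.0% of the 8511 genes.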
